A study of Bos taurus with 6 samples.

Results

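The bovine miR-2284 and miR-2285 family comprised every row of the deposited count table whose miRNA name began with bta-miR-2284 or bta-miR-2285. This rule found 39 members, of which 9 carried a miR-2284 name and 30 a miR-2285 name. They made up 10.9% of the 359 known bovine miRNAs in the table, which listed 706 miRNAs when newly predicted ones were included. The rule used names alone and no measured value.

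miR-2284 and miR-2285 form a large family of closely related small RNAs that is known mainly from cattle and other ruminants. A miRNA pairs with messenger RNAs chiefly through its seed, the bases 2 to 8 counted from its 5′ end, and in this way lowers the amount of protein made from them. Members of a family that differ in the seed, or that start at another base, can therefore be directed to other messenger RNAs although most of their sequence is shared.

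The libraries held small RNAs of serum extracellular vesicles (EVs), membrane-enclosed particles that cells release into the blood. Blood was taken on day 30 from 6 female Holstein cows in mid lactation, with 1 library per cow. The 3 control cows received a total mixed ration (TMR), and the 3 cows of the tested group received a ration in which whole cotton seed and soybean hull replaced a part of the alfalfa hay, with less corn silage by the study's text. All 6 cows were housed in climate chambers with the same temperature and humidity.

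Known miRNAs took between 1226928 and 2088249 counts per library. The summed share of red blood cell miRNAs (3 of 3 listed miRNAs measured) ranged from 1.35% to 2.84% of all known miRNA counts among control cows and from 0.862% to 5.96% among tested cows, with the highest value in tested cow 1. White blood cell miRNAs (4 of 5 with counts, none for miR-142-3p) took 0.0196% to 0.0386% and 0.0124% to 0.0439%. Liver miRNAs (3 of 3) took 0.107% to 0.159% and 0.113% to 0.202%. Epithelial miRNAs (6 of 7, none for miR-203) took 7.74% to 9.28% and 8.98% to 9.64%. Platelet and vessel miRNAs (3 of 3) took 0.00126% to 0.0100% and 0.00399% to 0.0212%, and muscle miRNAs (4 of 4) 0.000195% to 0.000904% and 0.000319% to 0.00481%. The part of these cells in the family's values was not tested, and in EV preparations fewer vesicles of a cell type and less RNA per vesicle cannot be told apart.

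The sequences carried by the most counts are shown first, 5′ to 3′ as the count table lists them (T stands for U), with the seed in capitals. They are the leading member miR-2285t, its followers miR-2284x, miR-2285k, miR-2285ba, miR-2285f and miR-2285bf, and the members that the comparison of the diets turned on, miR-2285bc, miR-2284y and miR-2285h.
bta-miR-2285t: aGAATCTGgatgaactttttgg
bta-miR-2284x: tGAAAAGTtcgttcgggtttt
bta-miR-2285k: aAAACCGGaatgaactttttg
bta-miR-2285ba: aAACCCTGaacgaactttttgg
bta-miR-2285f: aAAACCTGaatgaactttttgg
bta-miR-2285bf: aAAACACGaacaaactttttg
bta-miR-2285bc: aAAAACCTgaatgacccttttgg
bta-miR-2284y: aAAAGTTCgttcgggtttttc
bta-miR-2285h: gAAAACCGaaacgaactttatg

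The members had short, A- and T-rich sequences. Their median GC content was 31.8% (22.7% to 47.6%), against 49.0% for the other 320 known miRNAs. Of the 39 sequences, 4 were 20 bases long, 11 were 21, 16 were 22, 7 were 23 and 1 was 24 bases. There were 26 different seeds. A set of 6 seeds was shared by 19 members, and each of the other 20 members had a seed of its own.

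The family fell into 2 sequence classes, and the names followed them in part. In the following pair, the letters AAAGTT of miR-2284x and AACTTT of miR-2285o are in capitals. AACTTT is AAAGTT read on the opposite strand.
bta-miR-2284x: tgaAAAGTTcgttcgggtttt
bta-miR-2285o: aaacccgaacgAACTTTtgg
The class of miR-2284x held 15 members, all 9 named miR-2284 and 6 named miR-2285. Their sequences lay 0 to 5 edits (substituted, inserted or missing bases, with the ends of the longer sequence free) from miR-2284x and 8 to 12 edits from its reverse complement. The opposite class held 24 members, all named miR-2285, which lay 10 to 11 edits from miR-2284x and 2 to 9 edits from its reverse complement. The assignment was weakest for miR-2285dk, with 10 and 9 edits.

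AAAGTT occurred in 14 of the 15 members of the first class, with miR-2284w as the exception, and AACTTT in 19 of the 24 members of the opposite class. Counting either on the listed strand only, 33 of 39 members (84.6%) held one of these 6-letter words, against 4 of the other 320 known miRNAs (1.25%) and 3 of the 347 newly predicted miRNAs (0.865%). The words were read from members of the family, so a higher share among members follows in part from that choice. After reverse complementing, 18 pairs of members came within 2 edits of each other. The reverse complement of miR-2285o lay wholly inside miR-2284h-5p, a pair chosen after its values were seen.

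Gene positions were read from the RefSeq annotation of ARS-UCD2.0. Since the libraries were matched to ARS-UCD1.2, only names and neighbours were used. It held 191 loci of the family under 138 names on 30 chromosomes. A locus of the same name was found for 38 of the 39 members, all but miR-2285bt, and these members had 71 loci on 23 chromosomes. More than 1 locus was listed for 13 members, up to 7 for miR-2284y and also 7 for miR-2284z, so that a count of such a member cannot be assigned to a locus. Of the 71 loci, 44 (62.0%) lay inside a protein-coding gene, close to the 65.3% of 841 other miRNA loci. The locus of miR-2285t lay inside FCGR2B, which encodes a receptor for the constant part of IgG, and that of miR-2284x inside TIAM1, an activator of the small GTPase RAC1. The locus of miR-2285bc lay inside ORC1, a subunit of the complex that marks replication origins.

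Loci of the family overlapped in 6 pairs. MIR2285O-5 overlapped MIR2284H, MIR2285O-1 overlapped MIR2285AV, and MIR2285O-3 overlapped MIR2284Y-4 inside RBBP8. Each of these overlaps joined members of the opposite classes.

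The summed family took a small share of the EV miRNAs. Its counts were 1577, 1769 and 1486 in control cows 1 to 3 and 1282, 1089 and 1818 in tested cows 1 to 3, 9021 in all. As a share of the known miRNA counts this was 0.103% (exact binomial 95% interval 0.0976% to 0.108%), 0.0881% (0.0840% to 0.0923%) and 0.0747% (0.0709% to 0.0786%) in the control group. In the tested group it was 0.104% (0.0988% to 0.110%), 0.0579% (0.0546% to 0.0615%) and 0.0871% (0.0831% to 0.0912%). The highest and the lowest share both belonged to tested cows, and the groups overlapped.

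The mean share was 0.0884% ± 0.0140 for control cows and 0.0832% ± 0.0235 for tested cows (SD, n = 3), a difference of less than either SD. No test was made of a sum over chosen members. The intervals cover counting error only and leave out differences between cows. They also treat all counts as independent, which PCR copies of one molecule are not. Without its leading member the family took 0.0487% ± 0.0159 and 0.0489% ± 0.00849 (SD, n = 3). If it were counted as 1 miRNA, the family would stand at rank 56 among the known miRNAs, while its most abundant member alone stood at rank 71.

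On another total the picture differed. In RPM, which the deposited normalized table gives relative to clean reads, the family had 111, 138 and 134 for the control cows and 88.9, 90.4 and 75.2 for the tested cows. These values did not overlap, with means of 128 ± 15.1 and 84.8 ± 8.37 (SD, n = 3). The clean reads include other RNAs. Known miRNA counts came to 10.8%, 15.7% and 18.0% of the clean reads in control cows and 8.50%, 15.6% and 8.63% in tested cows, and their part in this difference was not tested.

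**Figure D1:**
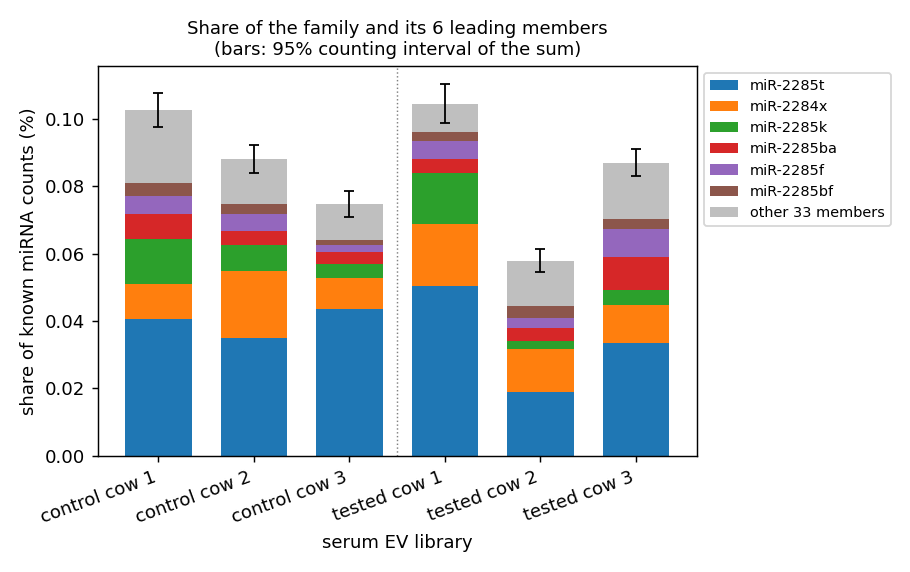
Share of the known miRNA counts (%) taken by the family in each of the 6 serum EV libraries, stacked by the 6 leading members and the other 33, with exact binomial 95% counting intervals of the sum. The sums lie between 0.0579% and 0.104%, and miR-2285t is the tallest part of each bar.

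A few members held most of the family's counts. miR-2285t was counted 626, 702 and 867 times in the control group and 620, 354 and 697 times in the tested group. It was the leading member in every library. Relative to library size, tested cow 1 stood highest and tested cow 2 lowest, so that the groups overlapped.

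miR-2285t made up 39.7%, 39.7% and 58.3% of the family counts in the control group and 48.4%, 32.5% and 38.3% in the tested group, with means of 45.9% ± 10.8 and 39.7% ± 8.02 (SD, n = 3). On the CPM scale (counts relative to a library size that TMM had adjusted), its level was 395 ± 63.3 and 323 ± 148 (SD, n = 3). Its log2 fold change, tested over control, was -0.29 with a standard error of 0.448 (p = 0.527 in the quasi-likelihood test of edgeR on all 623 miRNAs with at least 10 counts in sum, exact permutation p = 0.5). The sequence of this leading member was among the most distant, 3 edits from its nearest relative.

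miR-2284x, at rank 100, was counted 160, 399 and 182 times in the control group and 225, 245 and 238 times in the tested group. Control cow 2 had the highest value and the groups overlapped, with a log2 fold change of 0.07 and a standard error of 0.591 (edgeR p = 0.904, exact permutation p = 0.8). It was the second member by mean share.

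miR-2285k, at rank 117, was counted 204, 155 and 87 times in the control group and 186, 42 and 92 times in the tested group (log2 fold change -0.25, SE 0.855). The first cow of each group stood highest. miR-2285ba, at rank 129, had counts of 112, 83 and 69 against 49, 74 and 206, with tested cow 3 above all other libraries (log2 fold change 0.19, SE 0.867). miR-2285f, at rank 134, was highest in the same cow, with 86, 104 and 44 against 68, 53 and 171 counts (log2 fold change 0.28, SE 0.914). miR-2285bf, at rank 149, was highest in tested cow 2, with 56, 59 and 29 against 32, 70 and 62 counts (log2 fold change 0.19, SE 1.13).

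None of these 6 leading members was past the threshold used for the diets, which asked for both a log2 fold change beyond 1 in either direction and an unadjusted edgeR p below 0.05. Their lowest edgeR p was 0.527, and their lowest p in a two-sided exact permutation test over the cows was 0.5. Together they held 78.9%, 84.9% and 86.0% of the family counts in the control group and 92.0%, 77.0% and 80.6% in the tested group.

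miR-2284ab followed at rank 158, with counts of 93, 3 and 54 in the control group and 11, 21 and 36 in the tested group. Its lowest and its highest value both stood in the control group, and its log2 fold change of -1.30 had a standard error of 1.51 (edgeR p = 0.404, exact permutation p = 0.4). Leaving out control cow 1 gave -0.38, and leaving out control cow 2 gave -1.88. With the 6 leading members it was detected in every library, and no other member was. The 33 members below the leading 6 had 333, 267 and 208 counts in sum in the control group and 102, 251 and 352 in the tested group.

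**Figure D2:**
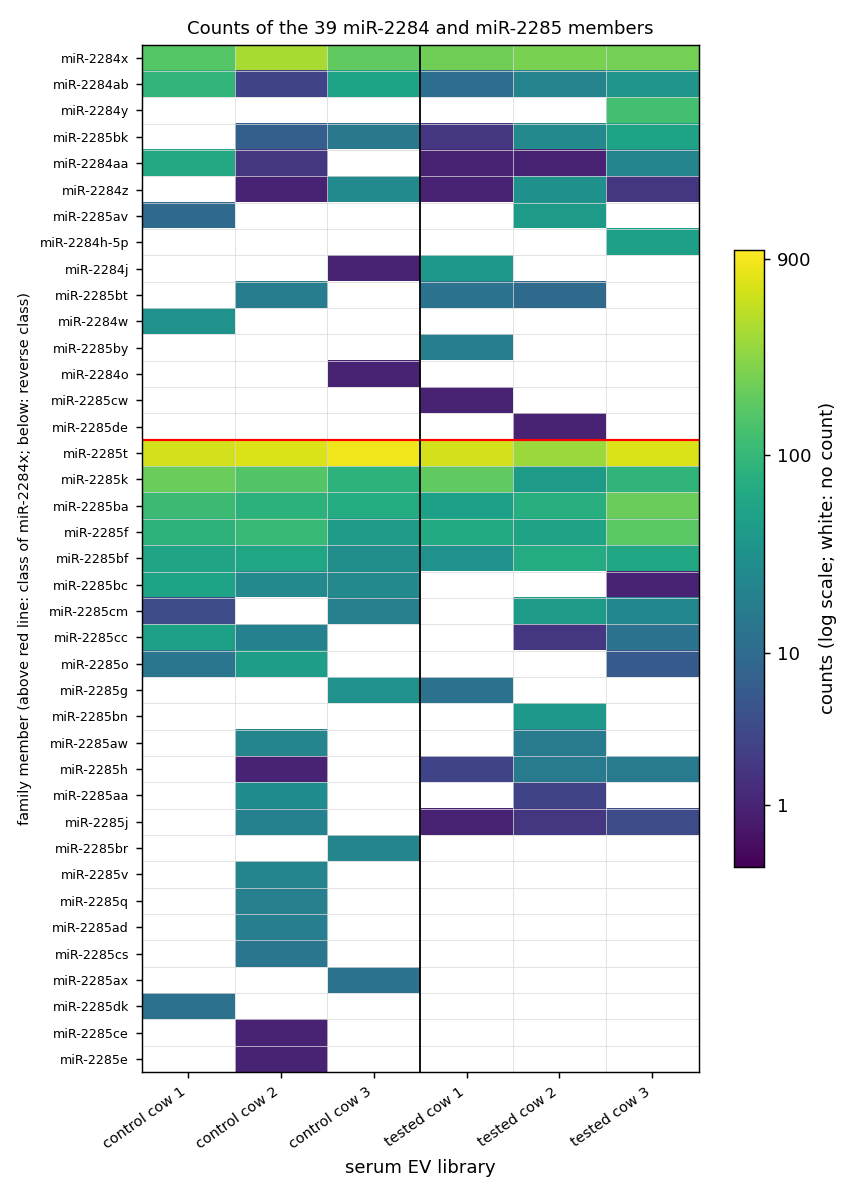
Counts of each of the 39 members (rows) in each of the 6 serum EV libraries (columns) on a log colour scale, where white marks no count; the red line divides the class of miR-2284x from the opposite class. The rows of miR-2285t and miR-2284x are filled in every library, and 124 of the 234 cells are white.

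Below these members, detection was patchy. A member was called detected in a library with at least 1 count. The control libraries held 15, 24 and 16 members and the tested libraries 17, 20 and 18, with means of 18.3 ± 4.93 and 18.3 ± 1.53 (SD, n = 3). Control cow 2 had the most members, and the other libraries lay within 5 of each other. With all libraries thinned to 1226928 known miRNA counts, the depth of the smallest, the numbers were 15, 22.3 and 15.2 against 17, 19.1 and 17.4, with the libraries in the same order as at full depth.

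Members differed in how many cows they were found in. Of the 39 members, 17 had counts in 1 library only and 7 in all 6. In numbers of libraries between these, 5 members were found in 2, 2 in 3, 5 in 4 and 3 in 5. Both groups held 22 of the members, 11 members were found in the control group alone and 6 in the tested group alone. Members found in 1 library made up 43.6% of the family, 20.9% of the other known miRNAs and 7.20% of the newly predicted miRNAs. Members found in every library made up 17.9% of the family, against 51.9% and 36.0%.

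**Figure D3:**
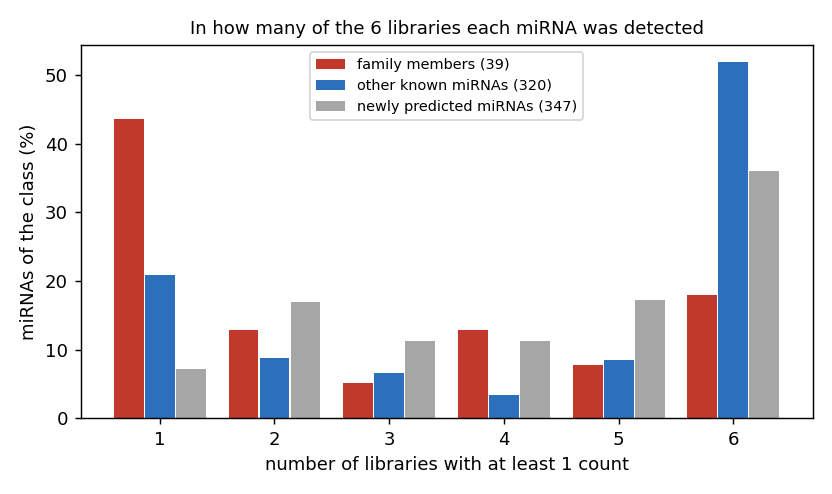
Percentage of the 39 family members, the 320 other known miRNAs and the 347 newly predicted miRNAs that had at least 1 count in exactly 1 to 6 libraries. Of the sets shown, the family has the highest bar at 1 library (43.6%) and the lowest at 6 libraries (17.9%).

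The family's counts were also low, with a median of 40 counts per member over the 6 libraries against 155.5 for the other known miRNAs and 72 for the newly predicted ones. A detected member was mostly counted more than once, however. Of the 110 member and library pairs with any count, 13 had a count of 1 and 85 had at least 10, with a median of 25.5. A count of 0 in a library allows a share of up to 0.000144% to 0.000245% of its known miRNA counts, the share of 3 counts.

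Members with many counts in a single cow stood out. Of the 34 members with at least 10 counts in sum, 12 (35.3%) had all their counts in 1 library, against 42 of 278 other known miRNAs (15.1%) and 15 of 311 newly predicted ones (4.82%). These 12 members had 12 to 126 counts. Control cow 2 alone held 4 of them, control cows 1 and 3 and tested cow 3 held 2 each, and tested cows 1 and 2 held 1 each. They were thus spread over all 6 cows.

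The near-identical sequences gave another view of these gaps. Of the 741 pairs of members, 3 were nested (the shorter lay wholly inside the longer), 13 lay 1 edit apart and 60 lay 2 edits apart. All 76 such pairs lay within 1 sequence class, which the class rule, itself based on edits to miR-2284x, nearly ensures. In the family 33 of 39 members (84.6%) had a relative within 2 edits, against 82 of the other 320 known miRNAs (25.6%). How the counting treated reads that match several names is not given in the sources used here.

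Linking members at most 1 edit apart gave 6 groups with 19 members, which held 46.3% of the family counts. On their own, 5 of these 19 members were detected in every library and 7 in 1 library only. Each of the 6 groups, counted as a sum, was detected in all 6 libraries. In 4 of the groups, at least 1 member was already detected in every library by itself. Of the 20 members outside these groups, 2 were detected in every library and 10 in 1 library, and the difference between members inside and outside was not tested.

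The largest group by counts was led by miR-2284x, and its sequences are shown because its minor members had most or all of their counts in different cows. The seed is in capitals.
bta-miR-2284x: tGAAAAGTtcgttcgggtttt
bta-miR-2284j: gAAAAGTTcgttcaggtttt
bta-miR-2284y: aAAAGTTCgttcgggtttttc
bta-miR-2285av: aAAAGTTCgttcgggttttt
bta-miR-2284o: aAAGTTCGttcggggttttc
With positions counted from 1 at the 5′ end of miR-2284x, miR-2284y and miR-2285av started 2 bases later and had no substitution over the 19 shared bases. miR-2284j started 1 base later and had the substitution G15A, and miR-2284o started 3 bases later and had T18G. These shifts gave the 5 members 4 different seeds.

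miR-2284y was counted 126 times in tested cow 3 and not in any other library. miR-2284j had 39 counts in tested cow 1, 1 count in control cow 3 and none elsewhere. miR-2285av had 42 counts in tested cow 2 and 10 in control cow 1, and miR-2284o had 1 count, in control cow 3. Each tested cow therefore held a different minor member of the group, next to 225 to 245 counts of miR-2284x. As a sum the group had 170, 399 and 184 counts in the control group and 264, 287 and 364 in the tested group. In CPM the sum was 132 ± 53.5 and 171 ± 29.7 (SD, n = 3), with a log2 fold change of 0.38 and a standard error of 0.555 (edgeR p = 0.508, exact permutation p = 0.3).

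The second group was led by miR-2285k and miR-2285f.
bta-miR-2285k: aAAACCGGaatgaactttttg
bta-miR-2285f: aAAACCTGaatgaactttttgg
bta-miR-2285bn: aAAACCTGaatgaactttttgt
bta-miR-2285br: aAAACCTGaatgaactttctgt
bta-miR-2285ce: gAAAACCTgaatgaactttttga
Counted from the 5′ end of miR-2285k, all 4 other members had the substitution G7T, which lies in the seed, and miR-2285br had T19C as well. miR-2285f, miR-2285bn and miR-2285br thus shared the seed AAACCTG. miR-2285bn was counted 39 times in tested cow 2 only, miR-2285br 22 times in control cow 3 only and miR-2285ce once, in control cow 2. As a sum the group had 290, 260 and 153 counts against 254, 134 and 263, with a log2 fold change of -0.01 and a standard error of 0.625 (edgeR p = 0.984, exact permutation p = 1).

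The other 4 groups had fewer counts. miR-2285ba with miR-2285e, which had 1 count in control cow 2, gave 112, 84 and 69 against 49, 74 and 206 (log2 fold change 0.18). miR-2284ab with miR-2285by gave 93, 3 and 54 against 29, 21 and 36, and all 18 counts of miR-2285by lay in tested cow 1 (log2 fold change -0.82). The last 2 groups joined miR-2285aw, miR-2285cm and miR-2285g (4, 22 and 51 against 12, 58 and 24) and the nested miR-2284aa and miR-2284z (63, 3 and 26 against 2, 32 and 24), named here after their values were seen. Their log2 fold changes were 0.33 and -0.88, with standard errors of 1.58 and 1.74. Over the 6 groups the edgeR p ranged from 0.508 to 0.984.

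**Figure D4:**
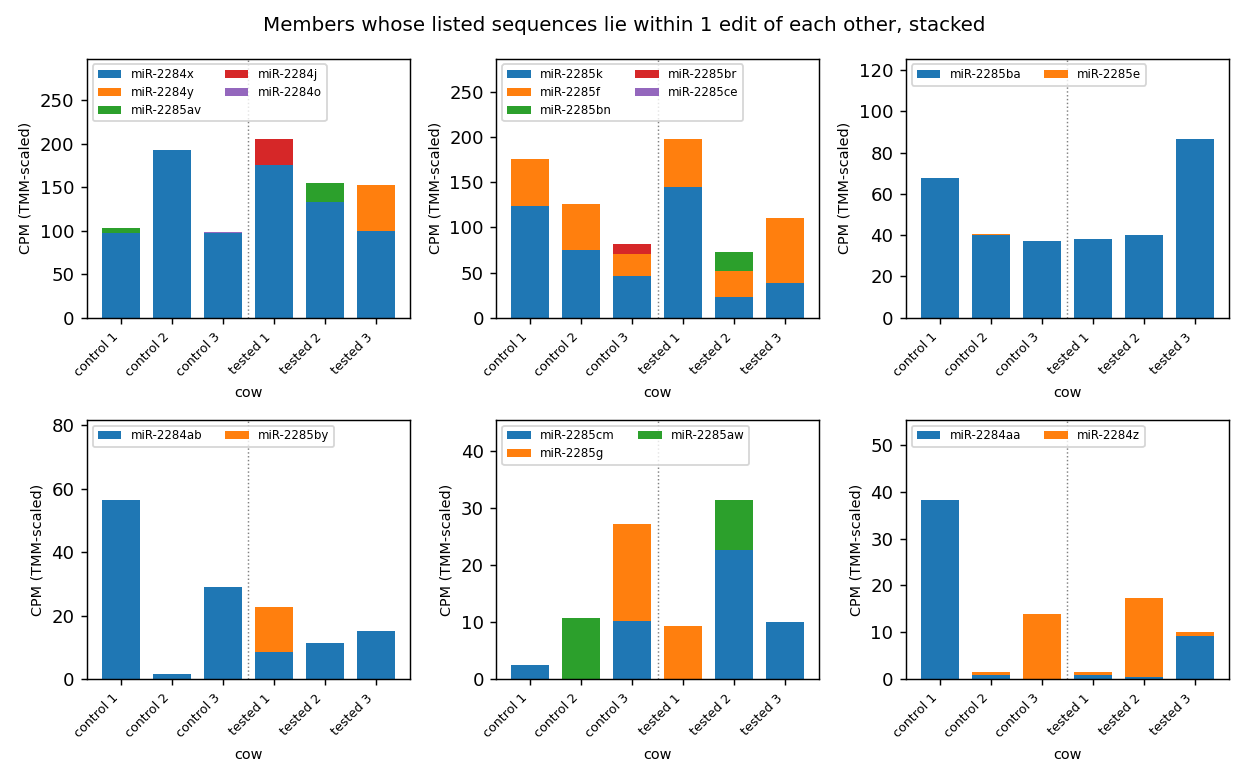
CPM scaled by TMM in each cow for the 6 groups of members whose listed sequences are linked by at most 1 edit, stacked by member. In the group of miR-2284x (top left) a different minor member stands on top of miR-2284x in each of the 3 tested cows, and each group has counts in every cow.

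Sharing a seed was not the same as being near-identical. Of the 13 group members other than the leading one of their group, 2 had its seed and 8 started at another base. The seed shared by most members was AAACCTG, in miR-2285aw, miR-2285bn, miR-2285br, miR-2285cm and miR-2285f. Their sum was 90, 126 and 85 counts against 68, 150 and 195, and the groups overlapped. Its log2 fold change was 0.42 with a standard error of 0.749 (edgeR p = 0.585, exact permutation p = 0.3). AAAGTTC was shared by 4 members, whose sum was 10, 7 and 15 against 2, 68 and 180 counts (log2 fold change 2.69, SE 1.55, edgeR p = 0.106, exact permutation p = 0.4). Most of that sum in tested cow 3 was miR-2284y.

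By class, the 15 members of the class of miR-2284x held 22.8%, 24.3% and 18.8% of the family counts in the control group and 24.3%, 34.5% and 28.9% in the tested group. The means were 21.9% ± 2.83 and 29.2% ± 5.14 (SD, n = 3). Tested cow 1 exceeded control cow 2, the highest control, by less than the rounding of these values. In tested cow 3, 6.93% of the family counts were miR-2284y, a member of this class that was not counted in any other cow. In counts the class had 359, 429 and 279 against 311, 376 and 526, and the opposite class 1218, 1340 and 1207 against 971, 713 and 1292.

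The question of the study was whether the diet changes EV miRNAs. Of the 39 members, 34 reached 10 counts in sum and entered the fit, and 5 did not (miR-2284o, miR-2285ce, miR-2285cw, miR-2285de and miR-2285e, each with 1 count in all). Among the 34, 2 (5.88%) were past the threshold, 1 higher and 1 lower in the tested group. Over all 623 miRNAs of the fit, 3.21% were past it, 2.09% higher and 1.12% lower, and among its 312 known miRNAs 0.962% were. By the same threshold DESeq2 called 1 member and 4.17% of all miRNAs, and limma 1 member and 2.41%. Both members past it in edgeR are among those known miRNAs, and of the 278 known miRNAs outside the family 1 (0.36%) was past the threshold. The difference between these shares was not tested.

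No member had an adjusted p below 0.05 in edgeR (Benjamini-Hochberg over all 623), where the members' values ranged from 0.448 to 0.987 and 0.161% of all miRNAs passed. An unadjusted edgeR p below 0.05 was reached by the same 2 members, against 4.65% of all miRNAs. At an adjusted p below 0.05, DESeq2 called 1 member and 1.12% of all miRNAs, and limma 0 members and 0.161%.

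The member lower in the tested group was miR-2285bc. It was counted 54, 25 and 25 times in the control group and 0, 0 and 1 times in the tested group. All control values lay above all tested values, and control cow 1 held about as many counts as the other control cows in sum. In CPM this was 19.4 ± 11.6 and 0.140 ± 0.243 (SD, n = 3). Relative to the summed library sizes it was 103 times as high in the control group, and the interval of that ratio from counting error alone (95%) ran from 18.0 to 4093, since it rests on a single tested count.

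The log2 fold change of miR-2285bc was -6.42 with a standard error of 2.42 (edgeR p = 0.0198, adjusted p = 0.448, exact permutation p = 0.1). The last is the smallest value that 3 against 3 cows allow. DESeq2 gave an adjusted p of 0.0440 and limma one of 0.780, and over the alternatives fitted with edgeR the adjusted p ranged from 0.354 to 0.903. The call was lost without control cow 1, where the edgeR p was 0.0889 at a log2 fold change of -5.84, without tested cow 1 (0.0565 at -6.09) or without tested cow 2 (0.0502 at -6.00), so that the fitted difference was nearly as large with 1 cow fewer.

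The other members with the seed of miR-2285bc are shown with it. Its nearest relatives, each at 2 edits, were miR-2285cc, miR-2285ax and miR-2285f, of which miR-2285cc has the same seed.
bta-miR-2285bc: aAAAACCTgaatgacccttttgg
bta-miR-2285cc: aAAAACCTgaatgaaccttttga
bta-miR-2285ce: gAAAACCTgaatgaactttttga
miR-2285cc, named here after its values were seen, had 50, 20 and 0 counts in the control group and 0, 2 and 13 in the tested group. Counted together, the 3 members with the seed AAAACCT had 104, 46 and 25 against 0, 2 and 14 counts. The control values of this sum lay above the tested values, but the sum contains miR-2285bc, and the groups of miR-2285cc overlapped. The sum was not past the threshold (log2 fold change -3.75, SE 1.80, edgeR p = 0.0589, adjusted p = 0.451, exact permutation p = 0.1).

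The member higher in the tested group was miR-2284y, with its 126 counts in tested cow 3 and none in the other 5 libraries. Against a floor of 3 counts over the control group, and relative to library size, the pooled tested counts were at least 42.6-fold higher. This ratio rests on tested cow 3 alone and gives no bound for the other tested cows. The fitted log2 fold change of 8.04 depends on the prior count, and its standard error was 3.47 (edgeR p = 0.0410, adjusted p = 0.448, exact permutation p = 1). The groups overlapped at 0. The call was lost without control cow 2, where the edgeR p was 0.0821 at a log2 fold change of 7.89, or without control cow 3 (0.0704 at 8.02). Without tested cow 3 no count was left, and filterByExpr removed the member. limma gave an unadjusted p of 0.219, and DESeq2 gave no p for it.

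Groups without overlap were found for 2 of the 34 members, against 10.8% of all 623 miRNAs (8.03% higher and 2.73% lower in the tested group). The first was miR-2285bc. The other was miR-2285h, with 0, 1 and 0 counts in the control group and 3, 16 and 16 in the tested group. Its log2 fold change was 4.67 with a standard error of 2.74 and was not past the threshold (edgeR p = 0.113, adjusted p = 0.484, exact permutation p = 0.1). Without control cow 2, which held its 1 control count, the fitted value was 6.44. Leaving out any other cow gave 4.25 to 5.07, and none of these fits was past the threshold (edgeR p from 0.102 to 0.261 with any cow left out).

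Across the 34 members the fitted differences were scattered. The log2 fold change was below 0 for 19 members (55.9%) and above 0 for 15, with a median of -0.29. Over all 623 miRNAs 46.5% lay below 0, with a median of 0.07. The median absolute log2 fold change was 2.70 for the members and 1.01 for all miRNAs, and it exceeded 1 for 24 of the 34 members. The 12 members counted in 1 library had absolute log2 fold changes of 5.11 to 8.04 with standard errors of 2.85 to 3.50 and edgeR p from 0.0410 to 0.101. For the 7 members detected in every library the log2 fold change lay between -1.30 (miR-2284ab) and 0.28. For a member counted in 1 library, the zeros of the other libraries fix a large fitted value.

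**Figure D5:**
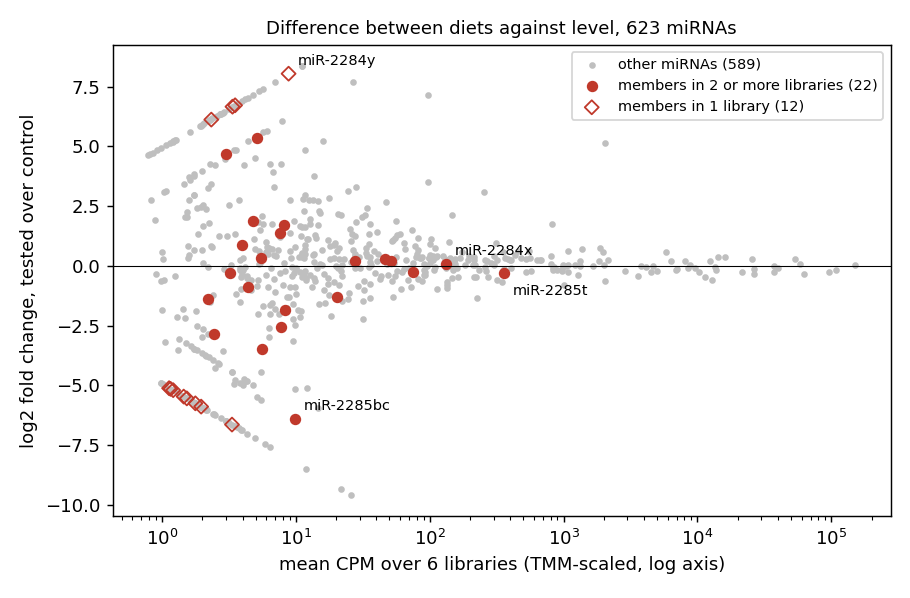
Log2 fold change (tested over control, edgeR) against the mean CPM over the 6 libraries (log axis) for 623 miRNAs, with the 34 members of the fit in red, filled where they were detected in 2 or more libraries and open where they were detected in 1. The open symbols lie at 5.11 or more from 0 on either side, and miR-2284x and miR-2285t lie near 0.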

How the data were processed

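Small RNA libraries of serum EVs from 3 control and 3 tested cows were used. The authors trimmed and filtered the reads, took known miRNAs from miRBase, predicted others with miRDeep2 and deposited raw counts per miRNA with each listed sequence. Their processing notes name cutadapt 1.14 and Bowtie, without roles. The counting rule for reads that match several names is not given in the sources used here. A second table, deposited as TPM, holds RPM values relative to clean reads, used only for that total. Columns of the authors' own comparison (base mean, fold change, standard error, statistic, p and adjusted p) were not used. Between 1277693 and 2176002 counts per library lay behind the values, which limits members with few counts.

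Groups follow the sample labels. The comparison used edgeR 4.0.16 in R 4.3.3 (TMM, estimateDisp, glmQLFit, glmQLFTest) on 623 miRNAs, known and newly predicted, with at least 10 counts in sum. The standard error was derived from the F statistic. P-values were adjusted by Benjamini and Hochberg. Single members were also tested with a two-sided exact permutation test on CPM (SciPy 1.17.1, smallest p 0.1). Edits between sequences were counted with edlib 1.3.9.post1. Floors used 3 counts. Alternatives were limma 3.58.1 on log2(CPM + 1), DESeq2 1.42.0, no factors or RLE, filterByExpr or no filter, a robust fit, a fit of known miRNAs alone, the replicate number as a block, merged near-identical or same-seed members, other totals and minimum counts, thinning (100 draws) and each library left out. The edgeR, DESeq2 and limma fits were also run on simulated counts, and the exact permutation test was not. Plots were drawn with Matplotlib 3.10.9.

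The members and lists were chosen with earlier results of these data known. Members named with values are those past the threshold or with p below 0.05, miR-2285bc (listed by the study), the 8 with the highest mean share, those whose groups do not overlap, members linked to any of these by at most 1 edit, and the 5 below the filter with the most counts. miRNAs outside the family are named only at a distance of at most 1 edit or as cell markers. Any other name is given for its sequence only or marked in the text as picked with its values in view.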

Additional observations from a re-analysis of the deposited data

How the results depend on the processing

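The count of 2 members past the threshold was also found with RLE factors, without factors, without a filter, with known miRNAs only and with robust estimation. It was 1 with DESeq2, 1 with limma, 1 with filterByExpr (which kept 12 members), 1 after near-identical members were merged and 0 after members with the same seed were merged, where miR-2285bc and miR-2284y are no longer features of their own. Each library left out in turn gave a count of 1 to 1, since either miR-2285bc or miR-2284y lost its call. With the replicate number as a block the count was 0 (miR-2285bc -6.50, p = 0.0585; miR-2284y 6.43, p = 0.156, edgeR), but cows with the same number did not deviate together (correlations -0.0571, -0.0494 and -0.0200 over 623 miRNAs) and share only a number. With a library left out, the log2 fold change changed sign for 6 members that were not past the threshold. It ranged from -0.15 to 0.50 for miR-2284x, from -4.94 to 6.86 for miR-2285av, from -0.29 to 0.51 for miR-2285ba, from -0.065 to 0.42 for miR-2285bf, from -0.029 to 0.57 for miR-2285f and from -1.41 to 0.16 for miR-2285k. The cause was not tested. The difference of the summed share (tested minus control, -0.00527 percentage points of the known miRNA counts, or -5.96% of the control mean) depended on the total. As a share of clean reads it was -0.00430 percentage points, -33.6% of the control mean, and the groups did not overlap. As a share of all miRNA counts, without the leading member or with a library left out (-0.0159 to 0.00734) it moved by less than 1 SD. The difference in detected members was 0 and lay between -1.67 and 2.83 under the alternatives. With all libraries kept, 135 values of named members under the alternatives kept direction and side of the threshold, and 3 lost the call. Only miR-2285bc and miR-2284y had a call to lose, so for all other members keeping the side meant staying short of the threshold. Settings that gave a member no p or removed it are not in these numbers. A count was lacking for 124 of 234 member and library pairs, and for these the depth sets only an upper limit.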

Other observations

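Outside the family names, 5 newly predicted miRNAs and 0 known ones had a listed sequence within 2 edits of a member or of its reverse complement. They had 27, 34 and 54 counts in sum in the control group and 67, 67 and 91 in the tested group. The closest, novel109_mature>novel149_mature, lay 1 edit from miR-2284o and had 3 counts in all, 1 in control cow 2 and 2 in control cow 3. Its listed sequence, with the letters AAAGTT in capitals, was aAAAGTTcgttcagggttttcc. The following 3 were chosen after their values were seen. novel179_mature, 2 edits from miR-2284j, had 26, 21 and 24 counts in the control group and 8, 6 and 79 in the tested group, so that tested cow 3 stood highest, as for miR-2284y. novel6_mature, 2 edits from miR-2285f, had 0, 11 and 0 against 57, 59 and 1 counts (log2 fold change 3.78, SE 2.29, edgeR adjusted p = 0.509). Its star strand had 27 counts, all in control cow 3, where novel6_mature itself had none. These miRNAs were not added to the family sums.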
